A study of Mus musculus with 23 samples.

Results

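One vector of a barcoded lentiviral Cre pool carried 3 guide RNAs at once, one for each salt-inducible kinase (Sik1, Sik2 and Sik3). It was picked by its name, bU6-sgSik1_1st-mU6-sgSik2-hU6-sgSik3_1st, which makes it 1 of the 26 named vectors and 1 of the 24 that target a gene. The pool was used to start lung tumours in mice of a mixed BL6/129 strain, and genomic DNA of tumour-bearing lungs was sequenced for the barcodes after 4 months. Every mouse carried R26LSL-Tomato, a Cre-dependent reporter. KT mice had no Cas9, so guides could not cut there and these mice gave the background. KT_Cas9 mice added H11LSL-Cas9, a Cre-dependent Cas9, and KTL_Cas9 mice also carried Lkb1flox/flox beside H11LSL-Cas9. By this design Cre is meant to delete Lkb1 in every tumour of KTL_Cas9 mice, including those of inert vectors. The labels name 5, 10 and 8 mice of these genotypes, and 4, 10 and 7 entered the comparisons. Age, sex, virus dose and the cell type infected are not given in the labels. The table holds no measure of whether the guides cut or whether floxed Lkb1 was deleted. Replicate numbers only name mice, in the order of the records. Mice of the 3 genotypes bear different title series, so genotype and series cannot be told apart.

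Lkb1 (Stk11) is a kinase and tumour suppressor that phosphorylates and activates a family of AMPK-related kinases. The Siks belong to that family. They phosphorylate, among others, the CRTC transcription coactivators and class IIa histone deacetylases and keep them out of the nucleus. Loss of Lkb1 is known to promote the growth of lung tumours. A vector against all 3 Siks asks what becomes of tumours that lack this branch below Lkb1, in mice with intact and with floxed Lkb1.

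Each tumour in these data is a pair of sequences read from the lung: a vector identifier of 8 bases and a barcode of 30 bases that is random from virus to virus. The identifiers are shown because all values below rest on telling them apart, first that of the triple Sik vector, then those of the triple inert vector (bU6-sgNeo1-mU6-sgNT-hU6-sgNeo2), the dual inert vector (mU6-sgNeo1-hU6-sgNT) and the dual vector with the same Sik1 and Sik3 guides (mU6-sgSik1_1st-hU6-sgSik3_1st).
Sik1/Sik2/Sik3: CATGGTAG
Triple inert: AATTGCCG
Dual inert: AATCCGGT
Sik1 guide 1/Sik3 guide 1: CCTACTAC
The barcodes of the largest triple Sik tumour of each genotype follow, with the 20 random bases in capitals and the 10 bases that are fixed in the pool in lower case.
KT: gcATGTAtaCGCCTgcGCTCTtaGACATgc
KT_Cas9: gcTGGGTtaTGCTAgcTATTCtaTGGCAgc
KTL_Cas9: gcAGCTGtaCCTTTgcTTTACtaTAGGGgc
The first had 3992 reads in KT replicate 2, an estimated 353191 cells. The second had 79810 reads in KT_Cas9 replicate 10, an estimated 10612091 cells, and the third had 205778 reads in KTL_Cas9 replicate 7, an estimated 5562971 cells. The largest tumours of the triple inert vector in the same genotypes held 390350, 1401958 and 2958532 cells. In KT mice the largest tumour of the triple inert vector was thus the larger, and in both Cas9 genotypes that of the triple Sik vector. With the dual inert vector included, the largest inert tumours held 390350, 5025135 and 3630383 cells.

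A barcode was counted as a tumour from 500 estimated cells upwards, that is from 3.13 to 51.7 reads depending on the mouse. Fewer than 10 reads lay behind 22.5% to 52.0% of triple Sik tumours per KT mouse. The share was 0% to 62.0% (median 39.1%) per KT_Cas9 mouse. In KTL_Cas9 mice it was 17.9% in replicate 4 and 0% in the other 6. The triple Sik vector gave 3827 tumours in KT, 4513 in KT_Cas9 and 425 in KTL_Cas9 mice, and the triple inert vector 2811, 3188 and 384. A KT mouse gave 23950 to 38810 reads of the triple Sik vector, a KT_Cas9 mouse 2571 to 234578 and a KTL_Cas9 mouse 65649 to 469358. The shallowest KT_Cas9 mice were replicates 2 and 5, with 70 and 54 triple Sik tumours, and a KTL_Cas9 mouse had as few as 16. KTL_Cas9 replicate 1 had 1 triple Sik tumour and 0 inert tumours and was left out, and KT replicate 4 was not analysed here.

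In mice with Cas9 and intact Lkb1 the triple Sik vector gave larger tumours than the inert vectors of the same mouse. Size is the log-normal mean cell number of the tumours of a vector. In KT mice it was 1730, 2093, 3141 and 1869 cells for the triple Sik vector (replicates 1, 2, 3 and 5) and 1900, 2035, 3106 and 2067 cells for the triple inert vector. Without Cas9 the 2 vectors thus differed little, and neither was larger in all 4 mice. In KT_Cas9 mice the triple Sik size ran from 1082 to 4575 cells (median 2649) and the triple inert size from 774 to 1830 (median 1341). The triple Sik vector was the larger in 10 of 10 of these mice. Against the triple inert vector the log2 size ratio was 1.01 ± 0.49 (SD, n = 10), a 2.02-fold difference, with adjusted p = 0.00469 by exact sign-flip permutation over mice. By that test 62.5% of the 24 targeting vectors were larger than the triple inert vector. Against both inert vectors the ratio was 0.99 ± 0.45 (SD, n = 10), from 0.20 in replicate 5 to 1.61 in replicate 4 (exact sign-flip adjusted p = 0.00361, with 75.0% of vectors called). The KT values were -0.01, 0.12, 0.02 and -0.07, so that the groups did not overlap. The difference from KT mice was 0.97 ± 0.15 SE against both inert vectors (exact permutation, adjusted over the 24 vectors to p = 0.00599) and 1.07 ± 0.16 SE against the triple inert vector (adjusted p = 0.00480). In this comparison 58.3% of the targeting vectors were called larger against both inert vectors and 54.2% against the triple one, and the difference of the triple Sik vector ranked 5 of 24. It was 0.12 on median sizes (exact permutation adjusted p = 0.312) and reached 3.12 among the 19 alternatives. KT_Cas9 titles fall in 2 series of 5 mice each, within which it was 1.08 (exact permutation adjusted p = 0.0519) and 0.86 (adjusted p = 0.0381).

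Among counted tumours, the added size lay in the upper part of the distribution. In KT_Cas9 mice the median of triple Sik tumours was 1.06-fold that of both inert vectors (log2 0.09 ± 0.12 SD, n = 10), and their 80th percentile was 1.26-fold. Their 90th percentile was 1.67-fold (0.74 ± 0.42 SD), their 95th 3.39-fold (1.76 ± 1.17 SD) and their 99th 10.3-fold (3.37 ± 1.69 SD). The 99th percentile was higher than inert in 9 of 10 mice and the 90th and 95th in 10 of 10. In KT mice the same percentiles lay between 0.951-fold and 1.14-fold of inert. The median counted triple Sik tumour was thus about as large as the median inert one, while the largest were several fold larger. These medians were 855 and 804 cells in KT_Cas9 mice (geometric means over mice), close to the lowest size counted as a tumour. Smaller tumours were not counted, so the medians cannot show whether the typical tumour was unchanged.

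In KT mice 4.24%, 5.70%, 4.10% and 3.96% of triple Sik tumours exceeded the 95th percentile of inert tumours of their mouse, which 5% of inert tumours exceed by construction. In KT_Cas9 mice this share ran from 5.56% to 18.6% (median 11.3%), and only the lowest, replicate 10, lay within the KT range. As a log2 ratio to the inert share, with 0.5 tumours added to the count, it was 1.13 ± 0.49 (SD, n = 10) in KT_Cas9 mice (exact sign-flip adjusted p = 0.00335, 83.3% of vectors called) and -0.15 ± 0.24 (SD, n = 4) in KT mice. The difference was 1.28 ± 0.20 SE (exact permutation adjusted p = 0.00533), in a comparison that called 62.5% of vectors higher. Against the triple inert vector the ratio was 1.26 ± 0.59 (SD, n = 10) in KT_Cas9 mice (exact sign-flip adjusted p = 0.00361), where 95.8% of vectors were called. Of the 4513 triple Sik tumours in KT_Cas9 mice, 84 held between 100000 and 1000000 cells and 17 held more. Those 17 tumours made up 51.4% of all triple Sik cells there. Of 3188 triple inert tumours 3 were in the lower of these size classes and 1 in the higher. Of 8468 dual inert tumours 10 were in the lower class and 3 in the higher, and those 3 held 29.3% of dual inert cells. Of 3827 triple Sik tumours in KT mice 5 were in the lower class and 0 in the higher. Tumours of 1 mouse are not independent replicates, so these pooled counts carry no test.

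With Cas9 and intact Lkb1 the triple Sik vector held a larger share of the tumour cells than in KT mice. Its share of all tumour cells of named vectors was 2.54%, 2.59%, 2.53% and 2.21% in the 4 KT mice, close to its share of tumours (2.65%, 2.47%, 2.47% and 2.40%). In KT_Cas9 mice it held 1.96% to 8.75% of cells (median 5.44%) with 2.60% to 3.60% of tumours. The share of cells was above the KT range in 9 of 10 mice, the exception being replicate 5. The triple inert vector held 1.70% to 2.01% of cells in KT and 0.261% to 5.03% in KT_Cas9 mice (median 0.463%). The ratio of summed triple Sik cells to those of both inert vectors was 5.68-fold higher in KT_Cas9 than in KT mice (log2 2.51 ± 0.33 SE, n = 10 and 4, exact permutation adjusted p = 0.00599). This was the largest of the 24 differences, in a comparison where 33.3% of vectors were called higher. The 4 dual vectors against Sik1 and Sik3 lay near it. Relative to their mean, log2 summed cells of the triple Sik vector were -0.48 ± 0.19 (SD, n = 4) in KT mice. In KT_Cas9 mice they were -0.13 ± 0.71 (SD, n = 10). Whether its rise exceeded that of the dual vectors was not tested. The difference from KT in the ratio to both inert vectors was 1.62 without barcodes seen in more than 1 mouse (exact permutation adjusted p = 0.00480). With a floor of 5000 cells it was 3.94 (exact permutation adjusted p = 0.0114, 6 KT_Cas9 mice left). Count tests on reads gave 1.61 by DESeq2 (adjusted p = 0.00113) and 1.54 by edgeR with TMM (adjusted p = 0.00777). Those 2 are normalised over all named vectors and not to inert tumours. In the ratio to both inert vectors the median difference of the 24 vectors was 1.39. Against the triple inert vector alone the difference was 2.58 ± 0.46 SE and did not pass (adjusted p = 0.0599, with 0% of vectors called). That ratio was lowest in KT_Cas9 replicate 6, at 0.40, a mouse in which 1 triple inert tumour of 1401958 cells exceeded the largest triple Sik tumour of 1119964 cells.

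The largest triple Sik tumour held 18.2% to 64.3% of the cells of its vector per KT_Cas9 mouse (median 28.2%), against 2.59% to 11.8% in KT mice. It was the largest of all named tumours in KT_Cas9 replicates 9 and 10. Without the largest tumour of each vector in each mouse the difference in summed cells from KT was 2.37 (exact permutation adjusted p = 0.00400). The vector also took 3.11% to 10.5% (median 5.33%) of the largest 1% of tumours of each KT_Cas9 mouse, against 2.02% to 3.51% in KT mice.

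Tumour number was not called in any comparison against KT mice. The triple Sik vector gave 1.37 tumours for each triple inert tumour in KT mice, where no guide can act, 1.53 in KT_Cas9 and 1.18 in KTL_Cas9 mice (geometric means). Relative to both inert vectors the number was 1.20-fold higher in KT_Cas9 than in KT mice (log2 0.26 ± 0.09 SE, two-sided exact permutation p = 0.0509 and 0.474 after adjustment), the largest of the 24 differences. No vector was called in that comparison (0% higher and 0% lower, 0 at an unadjusted p under 0.05). limma called 0 as well, with 1 vector, the triple Sik vector, at an unadjusted p under 0.05. Against the triple inert vector alone the KT_Cas9 difference from KT was 0.16 ± 0.10 SE (exact permutation p = 0.356, adjusted p = 0.974). For KTL_Cas9 against KT mice the difference relative to both inert vectors was 0.08 ± 0.16 SE (exact permutation adjusted p = 0.827, 0% called either way). Its 95% interval ran from -0.38 to 0.52.

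In mice with floxed Lkb1, triple Sik tumours were larger than inert ones in most mice, with a wide spread, and the difference in size did not pass the test. The size of triple Sik tumours in KTL_Cas9 mice ran from 17542 to 213908 cells (median 183492), and that of triple inert tumours from 19735 to 131366 (median 25052). The triple Sik vector was the larger in 6 of 7 mice. The exception was replicate 4, with 17542 against 24361 cells. The widest gap was in replicate 5, with 211621 against 19735 cells. The log2 ratio was 1.43 ± 1.26 (SD, n = 7) to the triple inert vector and 1.53 ± 1.15 (SD, n = 7) to both, from -0.15 to 3.36, so that it overlapped the KT values. Neither passed by exact sign-flip permutation (p = 0.0313 for each before adjustment, 0% of vectors called after it), where 7 mice allow no p below 0.0156. Against KT mice the difference was 1.52 ± 0.44 SE (2.86-fold, exact permutation p = 0.0333, adjusted p = 0.160) and the 95% interval from inverting the test ran from 0.22 to 2.86. It was 1.48 ± 0.48 SE against the triple inert vector (adjusted p = 0.236). No vector was called in either (0%), while 6 and 4 had an unadjusted p under 0.05.

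The tail measure did pass in KTL_Cas9 mice. The share of triple Sik tumours above the 95th inert percentile was 6.84% to 27.5% (median 12.5%), above the KT range in 7 of 7 mice. Its log2 ratio was 1.47 ± 0.60 (SD, n = 7), and the difference from KT was 1.62 ± 0.26 SE (3.08-fold, exact permutation p = 0.00303, the smallest possible, adjusted p = 0.0242). In that comparison 16.7% of vectors were called higher. Against the triple inert vector the difference was 1.49 ± 0.27 SE (exact permutation adjusted p = 0.0182), again with 16.7% called. Without any 1 of the 4 KT mice the difference was 1.57 to 1.74 and no longer called (exact permutation p = 0.00833, the smallest that 3 KT mice allow, adjusted p = 0.0667). The call was also lost without KTL_Cas9 replicate 2, 3 or 8 (1.61 to 1.64, exact permutation adjusted p up to 0.0762), and without barcodes seen in more than 1 mouse (1.13, adjusted p = 0.194). It was also lost at floors of 200, 2000 and 5000 cells, at 10 or more reads and with the 90th or 99th inert percentile. Within KTL_Cas9 mice alone the tail ratio was above 0 in each of the 7, and the sign-flip test was not passed (exact, adjusted p = 0.0750, 0% of vectors called). The 95% interval with all mice was 0.86 to 2.34.

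In KTL_Cas9 mice the middle of the distribution also lay above inert, though not by a call against KT mice. The difference in size from KT was called in 0 of 15 alternatives, medians among them. The median of triple Sik tumours was 1.89-fold that of both inert vectors (log2 0.92 ± 0.89 SD, n = 7) and above it in 6 of 7 mice. The 90th percentile was 2.07-fold (1.05 ± 1.04 SD), the 95th 2.49-fold (1.32 ± 0.84 SD) and the 99th 2.52-fold (1.33 ± 1.78 SD). On medians the log2 ratio was 0.83 higher in KTL_Cas9 than in KT_Cas9 mice (exact permutation adjusted p = 0.0311), and on 95th percentiles it was -0.44 (adjusted p = 0.504). The median of inert tumours (geometric mean over mice) was 804 cells in KT_Cas9 and 4711 in KTL_Cas9 mice, so it lay nearer the floor of 500 cells in KT_Cas9 mice. The part of the floor in the difference of medians was not tested.

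The direct comparison of the 2 Cas9 genotypes asks whether the vector acted differently where Lkb1 was floxed. Of the 4 measures as defined above, 0 were called for the triple Sik vector, though the median size was. Its log2 size ratio was 0.55 ± 0.46 SE higher in KTL_Cas9 mice (exact permutation adjusted p = 0.311, 95% interval -0.28 to 1.38), in a comparison where 4.17% of vectors were called higher and 33.3% lower. The tail ratio differed by 0.35 ± 0.27 SE (exact permutation adjusted p = 0.277, 4.17% called higher and 29.2% lower). Summed cells differed by -1.15 ± 0.58 SE (exact permutation adjusted p = 0.130, 0% called higher and 20.8% lower), or by -1.24 without the largest tumour of each vector (adjusted p = 0.0478), and number by -0.18 ± 0.17 SE (adjusted p = 0.357, 8.33% higher and 0% lower). The size difference turned negative when only larger tumours were counted, at -1.33 with a floor of 2000 cells (exact permutation adjusted p = 0.0574) and -2.002 with a floor of 5000 (exact permutation adjusted p = 0.00559, 6 KT_Cas9 mice left), and it was 1.03 with a floor of 200 (adjusted p = 0.0421).

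In share of cells the triple Sik vector held 5.22%, 4.94%, 1.85%, 5.50%, 2.99%, 10.9% and 2.16% in KTL_Cas9 replicates 2 to 8, with 1.82% to 2.77% of tumours. The lowest 2 values, in replicates 4 and 8, lay below the KT range and the other 5 above it. Summed cells relative to both inert vectors were 1.35 ± 0.49 SE higher than in KT mice on the log2 scale and did not pass (exact permutation adjusted p = 0.352, 0% called). The count test on reads, edgeR with library sizes from inert reads, gave 1.79 (adjusted p = 0.0133). With TMM, which normalises over all named vectors, edgeR gave 1.34 (adjusted p = 0.0350).

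The nearest relatives in the pool are the 4 dual vectors against Sik1 and Sik3, which lack the Sik2 guide. In the same mice the triple vector was 0.04 ± 0.31 (SD, n = 10) above their mean in KT_Cas9 and -0.10 ± 0.95 (SD, n = 7) from it in KTL_Cas9 mice on the log2 size scale. Both had adjusted p = 0.797 by exact sign-flip permutation over 6 contrasts. The 95% interval ran from -0.16 to 0.26 in KT_Cas9 and from -0.99 to 1.07 in KTL_Cas9 mice. Against single dual vectors the contrast ran from -0.05 to 0.10 in KT_Cas9 mice. In KTL_Cas9 mice it ran from -0.93 ± 1.16 (SD, mU6-sgSik1_2nd-hU6-sgSik3_1st) to 0.72 ± 2.25 (SD, mU6-sgSik1_2nd-hU6-sgSik3_2nd). The dual vector mU6-sgSik1_1st-hU6-sgSik3_1st carries the same Sik1 and Sik3 guides. The triple vector was larger than it by 0.10 ± 0.28 (SD) in KT_Cas9 mice (95% interval -0.08 to 0.31, larger in 5 of 10) and differed by -0.08 ± 0.62 (SD) in KTL_Cas9 mice (-0.64 to 0.52, larger in 3 of 7). The Sik1 guide stands behind the bU6 promoter in the triple vector and behind mU6 in the dual one, so promoter and Sik2 guide cannot be told apart. By summed cells the triple vector held 0.587-fold the cells of that dual vector in KT_Cas9 mice, with 0.478-fold the tumours. In KT mice these values were 0.462-fold and 0.453-fold. The tail was not particular to the triple vector. Its log2 tail ratio differed from the mean of the 4 dual vectors by 0.0045 ± 0.23 (SD, n = 10) in KT_Cas9 mice, higher in 4 of 10. In KTL_Cas9 mice it differed by 0.05 ± 0.41 (SD, n = 7), higher in 4 of 7.

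The other triple vector against 3 genes, Mark2/Mark3/Mark4, targets microtubule affinity-regulating kinases that Lkb1 also activates. The triple Sik vector exceeded it in 10 of 10 KT_Cas9 mice, by 0.94 ± 0.46 (SD, exact sign-flip adjusted p = 0.0117), and in 7 of 7 KTL_Cas9 mice, by 2.20 ± 0.95 (SD, adjusted p = 0.0469). In KT mice this contrast was -0.04 ± 0.03 (SD, n = 4). On median sizes the KT_Cas9 contrast was 0.03 (exact sign-flip adjusted p = 0.469). The KTL_Cas9 contrast was lost without any 1 mouse (1.96 to 2.41), since 6 mice allow no adjusted p below the threshold here. The Mark2/Mark3/Mark4 vector itself lay at -0.67 ± 0.75 (SD, n = 7) against inert in KTL_Cas9 and at 0.04 ± 0.12 (SD, n = 10) in KT_Cas9 mice.

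Against the mean of the 6 triple vectors that target Lkb1, the triple Sik vector was 0.20 ± 0.39 (SD, n = 10) higher in KT_Cas9 mice, larger in 6 of 10 (exact sign-flip adjusted p = 0.176, 95% interval -0.05 to 0.48). The 6 differed there, from 0.19 (bU6-sgNeo1-mU6-sgLkb1_2nd-hU6-sgNT) to 1.27 (bU6-sgNeo1-mU6-sgNT-hU6-sgLkb1_1st) against both inert vectors, beside 0.99 for the triple Sik vector. In KTL_Cas9 mice, where Lkb1 is floxed, the triple Sik vector was 1.67 ± 1.06 (SD, n = 7) higher than their mean. It was larger in 6 of 7 mice (exact sign-flip p = 0.0313, adjusted p = 0.0625). This contrast passed in 7 of 9 alternatives, among them medians (1.04, exact sign-flip adjusted p = 0.0469). Against both inert vectors the 6 ran there from -0.94 ± 0.70 (SD, bU6-sgLkb1_1st-mU6-sgNeo1-hU6-sgNT) to 0.41 ± 1.07 (SD, bU6-sgLkb1_2nd-mU6-sgNeo1-hU6-sgNT). The triple Sik vector lay at 1.53. The contrast thus also depends on where these vectors lay against inert. In summed cells the triple Sik vector held 2.41-fold the cells of these vectors in KT_Cas9 and 2.52-fold in KTL_Cas9 mice, against 1.001-fold in KT mice. Relative to both inert vectors, single Lkb1 vectors held 0.357-fold to 1.36-fold the cells in KT_Cas9 mice, beside 1.95-fold for the triple Sik vector.

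Some triple Sik barcodes stood in more than 1 mouse, 115 of 3827 tumours in KT, 166 of 4513 in KT_Cas9 and 33 of 425 in KTL_Cas9 mice. The 3 largest triple Sik tumours of KT_Cas9 mice were among them, each seen in a second KT_Cas9 mouse with 25, 80 and 7 reads. The largest of KTL_Cas9 mice was seen with 65 reads in KT_Cas9 replicate 5. In that mouse, the KT_Cas9 mouse with the smallest size ratio, 9 of 54 triple Sik tumours had a barcode of another mouse. With each barcode kept only in the mouse with most of its reads, the KT_Cas9 difference from KT in size was 0.97 (exact permutation adjusted p = 0.00480), and with all of them left out it was 0.66 (adjusted p = 0.0264). Without the 2 shallow mice the size difference was 1.07 (exact permutation adjusted p = 0.00808). In these 21 mice 0 pairs of triple Sik barcodes lay 1 mismatch apart.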

How the data were processed

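Tumour barcode libraries of 22 mice were analysed from 1 deposited table. The deposited counts are whole numbers of reads per mouse, vector identifier and barcode, from 2 upwards and not normalised. Per the file headers the authors also give the cells estimated for each barcode and, per mouse, the ratio that turns reads into cells (500000 over a read number, here taken to be a spiked standard). Read processing is not given in the sources used here. Of 1019578 lines, 105870 were exact repeats and were dropped, and 48400 without a vector name (1.76% of reads) were left out. PCR reads carry no molecular identifiers and cannot be taken as molecules, so errors are those between mice.

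Size was the log-normal mean (maximum likelihood), and all values were log2 ratios to inert tumours of the same mouse (at least 5 tumours of the vector, 20 inert tumours and 4 mice a group). Genotypes were set against each other by exact permutation of mice (1001, 330 or 19448 splits), single genotypes and contrasts within mice by exact sign-flip permutation, all two-sided, with Benjamini-Hochberg adjustment over 24 vectors or 6 contrasts at 0.05. Intervals, percentile profiles, sign-flip tests against inert tumours, the contrast with the same-guide dual vector and 2 further alternatives were added after the table was read. limma 3.58.1 on ratios, and edgeR 4.0.16 (quasi-likelihood) and DESeq2 1.42.0 on reads summed per vector, were alternatives. DESeq2 and edgeR with TMM were normalised over all named vectors and not to inert reads. The size comparisons with KT mice by exact permutation were tested on simulated tumours. edgeR, DESeq2 and limma were tested on simulated read counts, limma thus not on ratios. Number, summed cells, tail and the sign-flip contrasts were not simulated. Vectors named are, by rule, the triple Sik vector, the inert vectors, the dual Sik1/Sik3, Mark2/Mark3/Mark4 and triple Lkb1 vectors. The member, lists and tests were chosen with earlier results of these data known. One item of the genotypes, shared by all mice, is not reported here.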

Additional observations from a re-analysis of the deposited data

Results flagged for a closer look

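The number of triple Sik tumours relative to triple inert tumours stood apart in 2 mice. In KT replicate 2 the log2 ratio was 0.33, below the other KT mice, and in KT_Cas9 replicate 2 it was 1.37, above the other KT_Cas9 mice, where it rests on 70 against 27 tumours. Chance marks about 1 in 20 of such groups, and 24 were looked at.

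KTL_Cas9 replicate 1 entered no comparison. It held 639 reads of the triple Sik vector in 21 barcodes, of which 1 reached 500 cells (211 reads, 580 cells), and that mouse needed 182 reads for a tumour.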

How the results depend on the processing

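No paired analysis was possible because the labels give no replicate numbers to pair mice across genotypes. Vectors were compared within mice. Over 18 results and 236 alternatives (besides leaving out single mice), 187 kept direction and side of the threshold, 14 lost a call, 19 gained one and 16 changed sign. The cause was not tested. All values are log2 differences.

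Against KT mice, size in KT_Cas9 lost its call on medians (0.12) and in title series RT00 (1.08), where summed cells did too (1.83). Summed cells also lost it against the triple inert vector only (2.58), and the tail in series RT02 (0.98). The tail of KTL_Cas9 against KT lost its call at floors of 200, 2000 and 5000 cells (0.96, 1.40 and 1.52), at 10 or more reads (1.46), without shared barcodes (1.13) and at the 90th and 99th inert percentiles (0.79 and 1.79). Summed cells of KTL_Cas9 against KT gained one by DESeq2 (1.33) and edgeR (1.34 with TMM and 1.79 with inert reads). Number there was -0.22 against the triple inert vector.

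Between the Cas9 genotypes, size gained a call at 200 cells (1.03) and on medians (0.83) and turned negative at 2000 and 5000 cells (-1.33 and -2.002), on arithmetic means (-0.97) and on 95th percentiles (-0.44). The tail turned negative at 2000 and 5000 cells (-0.27 and -0.96) and at 10 or more reads (-0.031). Summed cells gained a call at 2000 and 5000 cells (-2.08 and -2.56) and without the largest tumours (-1.24), and number at 5000 cells (-0.75).

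The contrast with the dual Sik1/Sik3 vectors changed sign in KT_Cas9 without shared barcodes (-0.063), on medians (-0.030) and on 90th and 95th percentiles (-0.15 and -0.040), and in KTL_Cas9 at 200 cells (0.011) and on medians (0.24). The contrast with Mark2/Mark3/Mark4 lost its call on medians in KT_Cas9 (0.035) and on 95th percentiles in KTL_Cas9 (1.68). That with triple Lkb1 vectors gained a call in KT_Cas9 at 2000 and 5000 cells (1.08 and 1.32) and on arithmetic means (0.98), and was negative on medians (-0.029) and 90th percentiles (-0.15). In KTL_Cas9 it gained one at 200, 2000 and 5000 cells (1.79, 1.27 and 1.16), without shared barcodes (1.20), and on arithmetic means (1.46), medians (1.04) and 95th percentiles (1.44).

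Leaving out each mouse in turn changed a direction or call in 5 results, whose ranges over all such fits follow. They were -0.010 to 0.20 for number in KTL_Cas9 against KT and 1.47 to 1.78 for the tail there, where the fits that lost the call gave 1.57 to 1.74. They were -0.021 to 0.090 and -0.32 to 0.094 for the dual contrast in KT_Cas9 and KTL_Cas9, and 1.96 to 2.41 for the Mark contrast in KTL_Cas9. Number in KTL_Cas9 against KT turned negative without replicate 2. Mice with 100 or more inert tumours could not be used alone for KTL_Cas9, since 3 were left. KTL_Cas9 mice had 16 to 117 triple Sik tumours each, which limits the precision of their percentiles and shares.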
